A study of Mus musculus with 21 samples.

Results

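The nuclear lamina, high mobility group (HMG) and heterochromatin protein genes were followed in sorted epidermal cells of mice that expressed p16 for 6 months. The 10 genes, chosen by name for their function, were Lmna, Lmnb1, Lmnb2, Lbr, Hmgb1, Hmgb2, Hmga1, Hmga2, Cbx3 and Cbx5. All 10 had an entry among the 22050 entries of the expression table, and 9 of them were among the 12782 genes tested, whose mean over the 8 samples was 1 or more. The tenth, Hmga1, was listed at 0 in every sample.

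Both groups were K5-rtTA/tet-GFP mice of a mixed FVB, C57Bl and 129sv background, in which the keratin 5 promoter drives the doxycycline-dependent transactivator in basal keratinocytes and GFP marks the cells that respond. The p16 group (K5-rtTA/tet-GFP/tet-p16) also carried an inducible human p16 gene, which the control group lacked. All mice received doxycycline from 3 weeks of age for 6 months, and GFP+ cells of the dorsal skin were sorted after CD140a+, CD45+ and CD31+ cells had been gated out. Each of the 4 samples per group held about 80000 cells pooled from 3 mice, so the spread between samples is a spread between pools and not between animals. The samples came from 3 experiments, and the sources used here do not say which sample came from which. A further 13 samples of a second profiling were not analysed here.

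The lamina is a meshwork of lamin proteins under the inner nuclear membrane that holds heterochromatin at the nuclear edge. HMG proteins bend or coat DNA and open or compact chromatin, and the heterochromatin proteins encoded by the Cbx3 and Cbx5 genes bind methylated histone H3. In cultured senescent cells, low lamin B1, low HMGB2, release of HMGB1 and accumulation of HMGA proteins in heterochromatic foci are used as markers of senescence, and p16 is a cell cycle inhibitor of the senescence programme.

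The deposited table gives each gene's reads scaled by the size factor of its library, called normalised read counts here. Between 1760953 and 3414362 reads per control sample and between 2884544 and 3202975 reads per p16 sample fell on genes. The human p16 transgene, listed as hsCDKN2A, had 1, 1, 3 and 1 reads in the controls (replicates 1 to 4, the order used throughout) and 2, 13, 18 and 9 reads in the p16 samples. The controls, which did not carry this gene, thus had reads assigned to it too, and their source was not tested. The transgene was higher in p16 samples without passing the adjusted test. Limma put the difference at 1.73 on the log2 scale, and the p after adjustment was 0.0952. The groups overlapped, and by exact permutation p was 0.0571. The first p16 replicate by label, with 2 reads, was at a normalised read count of 1.6, inside the control range of 0.7 to 2.5. The member estimates without this library follow the main test. Replicate 4 of both groups also stood apart. On the second principal component, which held 16.5% of the variance, control replicate 4 was at -33.81 and p16 replicate 4 at -31.39, while the other 6 samples lay between -3.10 and 20.4. The EGFP transcript fell from 5330 ± 809 to 3555 ± 341 (SD, n = 4; log2 fold change -0.58, limma adjusted p = 0.0167). Markers of basal keratinocytes were high in all 8 samples, and their sums overlapped between groups (23438 to 40560 in controls and 25299 to 28934 in p16 samples). The sort was on GFP and not on a basal marker. Markers of suprabasal keratinocytes and hair-follicle stem cells were present too and are given below. Marker sums of the cells gated out were low: 10.8 to 27.3 in controls and 42.8 to 220.7 in p16 samples for fibroblasts (Lum at 0 throughout), 86.7 to 100.9 and 86.9 to 123.1 for immune cells (Lyz2 at 0 throughout) and 1.3 to 5.2 and 4.7 to 7.2 for endothelial cells (3 of 5 markers at 0 throughout).

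None of the 9 tested members passed the test in either direction at an adjusted p under 0.05 in limma, against 3.86% of all genes tested (1.24% higher and 2.61% lower in p16 cells). At an unadjusted p under 0.05, Lmnb1 and Hmgb2 were lower and no member was higher, that is 2 of 9 lower against 15.9% of all genes in either direction (7.02% higher and 8.93% lower). The count tests called no member either: edgeR, which tested 8 of the 9, gave an adjusted p of 0.119 for Hmgb2 and DESeq2 gave 0.169. Differences are given as log2 fold changes of p16 minus control on the log2(normalised value + 1) scale, with 95% confidence intervals from limma. They were above 0 for 3 members and below 0 for 6, and their median was -0.05, beside -0.0027 over all tested genes. The plot of differences by member shows how wide each interval was.

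Without the library labelled p16 replicate 1, the log2 fold changes of the lamina genes were 0.10 for Lmna, -0.33 for Lmnb1, 0.19 for Lmnb2 and 0.02 for Lbr. Those of the HMG genes were -0.12 for Hmgb1, -0.31 for Hmgb2 and -0.59 for Hmga2, and those of the heterochromatin genes 0.06 for Cbx3 and -0.0091 for Cbx5. Without replicate 4 of both groups, a choice made after the data were seen, they were 0.03 for Lmna, -0.23 for Lmnb1, 0.06 for Lmnb2, 0.08 for Lbr, -0.11 for Hmgb1, -0.28 for Hmgb2, -0.47 for Hmga2, 0.05 for Cbx3 and 0.05 for Cbx5. Hmgb2 had an unadjusted limma p of 0.025 in the first fit and 0.0265 in the second, and Lmnb1 had 0.119 and 0.191. No member was called in either fit, and Lbr in both and Cbx5 in the second changed sign.

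**Figure D1:**
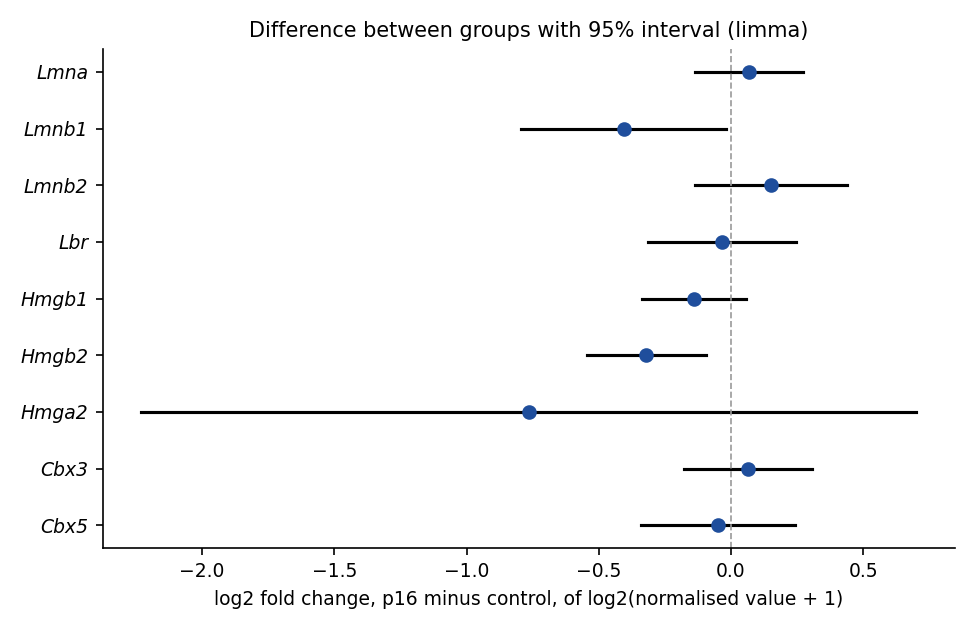
The log2 fold change between p16 and control samples (x axis, p16 minus control, on the log2(normalised value + 1) scale) for the 9 tested members (y axis), with points for the estimates and lines for 95% confidence intervals from limma over 4 samples per group. The intervals of Lmnb1 (-0.79 to -0.02) and Hmgb2 (-0.54 to -0.09) lie below 0, those of the other 7 span 0, and that of Hmga2 is the widest (-2.23 to 0.70).

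Lmna (ENSMUSG00000028063; GRCm38 chromosome 3, 88480147 to 88509956, minus strand) encodes lamins A and C by alternative splicing, which a count per gene does not separate. Its normalised read counts were 3503.7, 4052.8, 3665.7 and 3905.1 in control samples and 3737.1, 3902.2, 3801.1 and 4439.9 in p16 samples. Of the p16 values, 3 lay inside the control range and that of p16 replicate 4 lay above it. The means were 3782 ± 245 and 3970 ± 321 (SD, n = 4), a ratio of 1.05, and the interval of the log2 fold change was -0.14 to 0.27 (estimate 0.07, limma adjusted p = 0.805).

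Lmnb1 (ENSMUSG00000024590; chromosome 18, 56707813 to 56753424, plus strand) encodes lamin B1, a farnesylated lamin anchored in the inner nuclear membrane. It was at 116.5, 104.0, 101.1 and 169.6 in control samples and at 76.8, 120.2, 81.6 and 88.8 in p16 samples. In p16 replicates 1, 3 and 4 it lay below every control sample, while p16 replicate 2 lay above 3 of the 4 controls, so the groups overlapped. The means were 123 ± 31.9 and 91.8 ± 19.5 (SD, n = 4), a ratio of 0.748. As a fold change on the value + 1 scale, the limma interval was 0.577 to 0.988. The log2 fold change was -0.40 (SE 0.18, interval -0.79 to -0.02) with an unadjusted limma p of 0.0417, rank 1869 of 12782, and an adjusted p of 0.285. The exact two-sided permutation test of the values gave p = 0.143. Its unadjusted p was under 0.05 in 3 of the 8 fits that left out 1 library. Without control replicate 4, the highest sample, it was -0.24, and without p16 replicate 2 it was -0.54. Without the library labelled p16 replicate 1 it was -0.33 with an unadjusted limma p of 0.119.

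Lmnb2 (ENSMUSG00000062075; chromosome 10, 80901203 to 80918245, minus strand) encodes the other B-type lamin. Its control values lay close together at 78.6, 78.3, 76.0 and 77.9, and its p16 values were 80.0, 87.4, 76.3 and 104.4. The coefficient of variation was 1.5% in controls and 14.3% in p16 samples, and 3 of the 4 p16 values lay above the control range. These values rest on few reads: 106, 61, 91 and 51 in controls and 100, 112, 86 and 127 in p16 samples. At such numbers counting alone spreads the values, and the difference in spread was not tested. The means were 77.7 ± 1.17 and 87.0 ± 12.5 (SD, n = 4), the interval of the log2 fold change was -0.14 to 0.44 (estimate 0.15, limma adjusted p = 0.660), and the exact permutation test gave p = 0.171. The estimate was positive for Lmnb2 and negative for Lmnb1, but neither passed the adjusted test.

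As a description of the lamins within each library, which does not depend on the size factor, the ratio of Lmnb1 to Lmna reads was 0.03325, 0.02566, 0.02758 and 0.04343 in controls and 0.02055, 0.0308, 0.02147 and 0.02 in p16 samples. The ratio repeated the pattern of Lmnb1 itself, with 3 p16 samples below every control and p16 replicate 2 among them. The ratio of Lmnb2 to Lmna was 0.0206 ± 0.00135 in controls and 0.0219 ± 0.00146 in p16 samples, and the groups overlapped.

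Lbr (ENSMUSG00000004880; chromosome 1, 181815335 to 181843046, minus strand) encodes the lamin B receptor, which spans the inner nuclear membrane and tethers heterochromatin and B-type lamins. It was at 109.0, 119.4, 110.2 and 128.3 in controls and at 101.5, 128.8, 129.5 and 98.7 in p16 samples. Replicates 1 and 4 of p16 lay below the control range and replicates 2 and 3 just above it, and the means (117 ± 9.01 and 115 ± 16.8, SD, n = 4) differed by less than either SD. The interval of the log2 fold change was -0.31 to 0.25 (estimate -0.03, limma adjusted p = 0.941), so ratios from 0.804 to 1.19 lie within the error. Its exons share 440 bases with those of Dnah14 on the other strand, whose mean value was 1.84.

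The HMGB genes encode abundant DNA-bending proteins with a pair of HMG boxes. Hmgb1 (ENSMUSG00000066551; chromosome 5, 149046702 to 149184489, minus strand), which also acts as an alarm signal once released from cells, was at 2876.8, 3258.4, 2731.1 and 2928.8 in controls and at 2561.0, 2800.6, 2817.8 and 2512.7 in p16 samples. Replicates 1 and 4 of p16 lay below every control, and replicates 2 and 3 inside the control range. The means were 2949 ± 223 and 2673 ± 159 (SD, n = 4), a ratio of 0.906, with an interval of the log2 fold change of -0.34 to 0.06 (estimate -0.14, limma adjusted p = 0.509). The annotated exons of Hmgb1 share 42 bases with those of Uspl1 on the other strand, whose mean value was 43.7.

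Hmgb2 (ENSMUSG00000054717; chromosome 8, 57511907 to 57515999, plus strand), whose expression is linked to proliferation, was at 230.7, 233.6, 197.9 and 215.4 in controls and at 170.3, 187.4, 186.2 and 158.7 in p16 samples. Every p16 sample lay below every control. It was the 1 member of 9 whose groups did not overlap, against 9.83% of all tested genes (4.19% with p16 higher and 5.63% with p16 lower). The means were 219 ± 16.4 and 176 ± 13.7 (SD, n = 4), a ratio of 0.801. As a fold change on the value + 1 scale, the limma interval was 0.685 to 0.937. The log2 fold change was -0.32 (SE 0.11, interval -0.54 to -0.09), with an unadjusted limma p of 0.00881, rank 885 of 12782, and an adjusted p of 0.127. The exact two-sided permutation test gave p = 0.0286, the smallest that 4 against 4 samples allow. The estimate stayed between -0.37 and -0.27 when each library was left out in turn, with an unadjusted limma p from 0.00634 to 0.0268 in the 8 fits, and was -0.31 without the library labelled p16 replicate 1. No fit gave an adjusted p under 0.05.

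Within each library, the ratio of Hmgb2 to Hmgb1 was 0.08019, 0.07169, 0.07246 and 0.07355 in controls and 0.0665, 0.06691, 0.06608 and 0.06316 in p16 samples. The groups did not overlap, as for Hmgb2 alone, and the means were 0.0745 ± 0.00389 and 0.0657 ± 0.00170. This is a description, to which no test was applied.

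The promoters shown are those of Hmgb2 and Lbr, the members with a match to the letters TTTGAA, a motif known from cell-cycle genes. The pair was chosen with the values known, and a link between motifs and values was not tested. The motifs searched on both strands were the E2F letters GGCGGGA and TTGGCGC, the cell-cycle homology region (CHR) letters TTTGAA and the NF-Y letters CCAAT. The reverse complement of CCAAT can share letters with TTGGCGC, and the other pairs were searched independently. Both windows run from 250 bases before to 50 after a RefSeq start (GRCm38.p6) and are printed 5′ to 3′ on the strand of the gene, with motif matches on either strand in capitals. The first is chr8:57511593-57511892 (plus strand) and the second is chr1:181842352-181842651 (minus strand).
Hmgb2: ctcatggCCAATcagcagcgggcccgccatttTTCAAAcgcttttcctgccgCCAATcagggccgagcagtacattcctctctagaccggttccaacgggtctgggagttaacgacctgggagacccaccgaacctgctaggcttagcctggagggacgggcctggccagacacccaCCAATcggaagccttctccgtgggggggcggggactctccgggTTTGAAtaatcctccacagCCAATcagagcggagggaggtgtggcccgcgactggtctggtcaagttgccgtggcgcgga
Lbr: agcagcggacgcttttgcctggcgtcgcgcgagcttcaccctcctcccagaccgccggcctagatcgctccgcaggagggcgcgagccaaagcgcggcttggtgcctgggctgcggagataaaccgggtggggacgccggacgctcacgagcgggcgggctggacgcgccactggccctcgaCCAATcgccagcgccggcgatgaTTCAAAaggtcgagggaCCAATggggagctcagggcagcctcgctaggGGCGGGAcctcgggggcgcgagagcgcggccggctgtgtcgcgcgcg

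The Hmgb2 window held 4 matches to CCAAT, 2 to TTTGAA and none to the E2F letters. The Lbr window held 2 matches to CCAAT, 1 to TTTGAA and 1 to GGCGGGA. Among 32851 RefSeq promoters of that length, 37.4% held CCAAT, 17.9% TTTGAA, 11.3% GGCGGGA and 2.45% TTGGCGC. All members but Lmnb1, Hmga1 included, had promoters in that set, 15 in all. CCAAT occurred in 5 of the 15 (1 each of Cbx5, Hmgb1, Hmgb2, Lbr and Lmna), GGCGGGA in 4 (Cbx5, Hmga2, Hmgb1 and Lbr), TTTGAA in 2 (Hmgb2 and Lbr) and TTGGCGC in 2 (Cbx3 and Lmnb2). Lmnb1 was not searched. A match is a description of letters and not of binding.

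The HMGA genes encode AT-hook proteins that bind the minor groove of DNA. Hmga1 (ENSMUSG00000046711; chromosome 17, 27556497 to 27563674, plus strand) was listed at 0 in all 8 samples. Its exons share 102 bases with those of AI413582 on the other strand, whose mean value was 93.4. A value of 0 in every library says only how the gene is listed in this table, and no difference between groups was computed for it. For the other 9 members, none of the 451 words of 50 bases in the last 500 bases of the longest coding transcript occurred in a transcript of another annotated gene. Hmga1 itself was not searched for such copies.

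Hmga2 (ENSMUSG00000056758; chromosome 10, 120361275 to 120476469, minus strand), high in embryonic and some tumour cells, was near the limit of these libraries. It had 5, 0, 16 and 3 reads in controls and 1, 2, 5 and 1 reads in p16 samples, or normalised read counts of 3.7, 0.0, 13.4 and 4.6 against 0.8, 1.6, 4.4 and 0.8. Control replicate 3 held most of the control reads and control replicate 2 held none. The log2 fold change of -0.76 had an interval from -2.23 to 0.70 (limma adjusted p = 0.662, exact permutation p = 0.343), so neither a fall nor a rise could be shown at this depth. It was -1.48 without control replicate 2, with an unadjusted limma p of 0.0171, and its other leave-one-out values reached -0.20.

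The heterochromatin protein 1 family is encoded by Cbx5 (alpha), Cbx1 (beta) and Cbx3 (gamma). Cbx3 (ENSMUSG00000029836; chromosome 6, 51470360 to 51483704, plus strand) was at 398.4, 415.8, 367.5 and 311.7 in controls and at 395.0, 401.3, 426.5 and 335.5 in p16 samples. Of the 4 p16 values, 3 lay inside the control range. The means were 373 ± 45.7 and 390 ± 38.5 (SD, n = 4), with an interval of the log2 fold change of -0.18 to 0.30 (estimate 0.06, limma adjusted p = 0.856).

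Cbx5 (ENSMUSG00000009575; chromosome 15, 103191544 to 103239816, minus strand) was at 153.6, 139.9, 107.7 and 158.9 in controls and at 123.1, 145.2, 144.5 and 124.2 in p16 samples, all of which lay inside the control range. The means were 140 ± 23.0 and 134 ± 12.3 (SD, n = 4), with an interval of -0.34 to 0.24 (estimate -0.05, limma adjusted p = 0.914). The ratio of Cbx5 to Cbx3 was 0.381 ± 0.0937 in controls and 0.346 ± 0.0263 in p16 samples and overlapped. Cbx1, the remaining family member, was at 276 ± 59.5 and 225 ± 20.4 (interval -0.57 to 0.02), so the 3 genes of the family showed no change that passed the test.

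As p16 is a cell cycle inhibitor, Lmnb1 and Hmgb2 were set beside 30 genes of cycling cells. None passed the adjusted test in limma, but 28 of 30 log2 fold changes were below 0, with a median of -0.29, and 8 were lower at an unadjusted p under 0.05 (8.93% of all genes). DNA replication clamp gene Pcna was at 141.7, 154.0, 142.0 and 151.3 in controls and at 116.7, 122.6, 110.8 and 60.0 in p16 samples, with no overlap (log2 fold change -0.57, limma adjusted p = 0.127). The proliferation marker Mki67 was at 153.6, 259.2, 200.4 and 207.8 against 120.7, 215.5, 210.1 and 53.4 and overlapped. The topoisomerase gene Top2a was at 315.3, 304.2, 312.4 and 404.9 against 199.1, 340.4, 242.9 and 152.1, with p16 replicate 2 above 3 of the controls, as for Lmnb1.

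Summed over the list, the cycling genes were at 4015.4, 4255.8, 4137 and 5401.1 in controls and at 3127.2, 3946.8, 3402 and 3635.1 in p16 samples. The sum was highest in control replicate 4, where Lmnb1 was highest too, and among p16 samples it was highest in p16 replicate 2, again as for Lmnb1. The orders did not match throughout. Control replicate 1 had the lowest control sum, yet its Lmnb1 of 116.5 lay above that of control replicates 2 and 3. Control replicate 4 was also the library with the fewest reads (1760953). The sum in every p16 sample was below that in every control, and so was that of the hair-follicle stem cell markers, at 11832 to 15971 in controls and 9056.6 to 9151.3 in p16 samples. Most of the stem cell marker sum was Krt15 (10624 ± 2454 in controls and 7065.5 ± 546 in p16 samples). Of these 9 markers, 7 fell by the limma test, against 2.61% of all tested genes. Postn was higher without passing the test (limma adjusted p = 0.272). The part of either gene list in the Lmnb1 and Hmgb2 values was not tested. In sorted pools, fewer cells of a type and less RNA per cell cannot be told apart. Melanocyte marker sums were 133.5 to 522.3 in controls and 48.4 to 142.9 in p16 samples, and the fibroblast marker sums given above were higher in p16 samples. Most of the latter was Dcn, which rose from 5.85 ± 3.503 to 104 ± 70.6 (limma adjusted p = 0.00023), while Col1a2 was at 10.4 ± 5.62 and 2.67 ± 0.759 with no overlap (adjusted p = 0.0571) and Lum was at 0. Of 7 suprabasal keratinocyte markers, whose sums overlapped (5983.1 to 8393.6 and 6372.6 to 9802.5), the cornified envelope gene Lor rose (log2 fold change 1.72, limma adjusted p = 0.00951), while Ivl (-1.06, adjusted p = 0.0215) and Sbsn (-0.92, adjusted p = 0.00905) fell. Their part in these results was not tested.

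**Figure D2:**
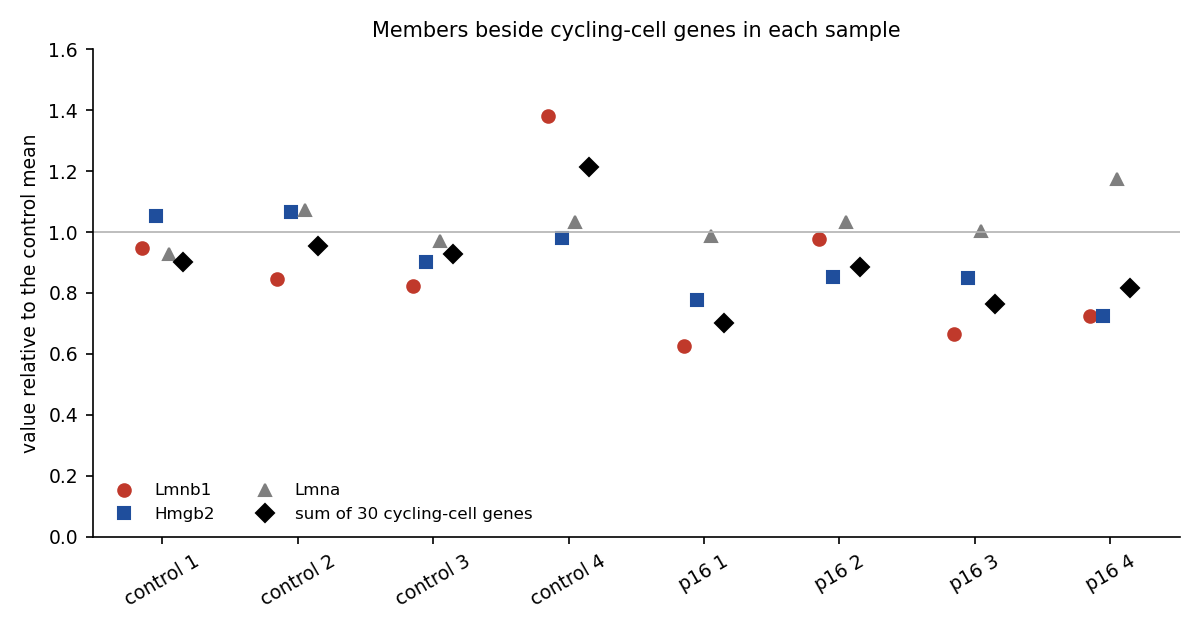
Lmnb1, Hmgb2, Lmna and the sum of 30 cycling-cell genes in each of the 8 samples (x axis), each divided by its own mean over the 4 control samples (y axis, linear from 0; points are single libraries). Lmnb1 and the cycling sum are both highest in control 4 and, among p16 samples, in p16 2. In control 1 the cycling sum is the lowest of the controls, while Lmnb1 is above controls 2 and 3. Hmgb2 is below its control mean in all 4 p16 samples.

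The genes whose pattern over the 8 samples was most like that of a member were found among 10430 genes with a mean of at least 10, as the root mean square (RMS) difference of log2 values scaled to mean 0 and SD 1, whose median over all genes was 1.32 to 1.33. Nearest to Lmnb1 were Cdc6, which loads the replicative helicase (RMS difference 0.184), Grb14 (0.228) and Lbp (0.240). Nearest to Hmgb2 were Irx5 (0.202), Efnb2 (0.246) and Crebbp (0.275), of which Efnb2, an ephrin ligand, fell (log2 fold change -0.97, limma adjusted p = 0.00175). Nearest to Lmna were Zfp524 (0.213), Cks2 (0.294) and Zfp688 (0.299). These are rankings over 8 points that share a group difference and carry no test.

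The proteins that work with the lamina were taken as lists. Of 21 nuclear envelope and lamina partners, 10 log2 fold changes were above 0 and 11 below, and the median was -0.01. By the limma test none rose and 1 fell, where 1.24% of all tested genes rose and 2.61% fell. The one was Sun2 (chromosome 15, 79724070 to 79742536), which links the lamina to the cytoskeleton across the nuclear envelope. It was at 362, 272.1, 323.2 and 288.8 in controls and at 240.7, 193.6, 191.5 and 222.8 in p16 samples, with no overlap. The means were 312 ± 39.8 and 212 ± 23.8 (SD, n = 4; log2 fold change -0.55, SE 0.12, interval -0.80 to -0.30, limma adjusted p = 0.0173). Of 30 tested nuclear pore genes none was called, and the median was 0.0023. Those with the smallest p differed in opposite directions without passing the test: Ranbp2 was at 70.6 ± 4.03 and 49.6 ± 11.2 (limma adjusted p = 0.143) and Pom121 at 77.0 ± 7.33 and 96.5 ± 5.35 (adjusted p = 0.212).

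Of 15 other tested HMG-box and HMG-related genes none was called and the median was -0.01. Hmgb3, the closest relative of Hmgb1 and Hmgb2 in the list, was at 102 ± 10.6 in controls and 108 ± 8.62 in p16 samples. The smallest p values belonged to Ubtf, a ribosomal RNA transcription factor (136 ± 13.9 and 111 ± 7.05, limma adjusted p = 0.251), and Hmgn3 (104 ± 16.3 and 126 ± 13.7, adjusted p = 0.343). Of 36 other heterochromatin and senescence-associated chromatin genes none was called, 13 log2 fold changes were above 0 and 23 below, and the median was -0.06. The chromatin remodeller Hells was at 55.0 ± 10.6 and 36.8 ± 8.10 (limma adjusted p = 0.148), and Ubn1, a partner of the histone chaperone HIRA, at 347 ± 42.1 and 279 ± 24.9 (adjusted p = 0.166).

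The 24 Polycomb genes, relatives of the heterochromatin proteins through the chromodomain of the Cbx proteins, had a median of -0.0026. Against 1.24% higher and 2.61% lower among all tested genes, none of them rose and 1 fell. It was Cbx6 (chromosome 15, 79823896 to 79834688), a reader of methylated histone H3 in Polycomb complexes, at 109.8, 75.7, 90.2 and 145.1 in controls and at 27.2, 46.1, 31 and 28.8 in p16 samples. Every p16 sample lay below every control, and the means of 105 ± 30.05 and 33.3 ± 8.69 (SD, n = 4) gave a ratio of 0.316 (log2 fold change -1.62, SE 0.22, interval -2.08 to -1.16, limma adjusted p = 0.00056). Of the cycling genes, Stmn1 (886 ± 179 and 611 ± 117, limma adjusted p = 0.0691) and Tyms (115 ± 11.2 and 78.9 ± 15.8, adjusted p = 0.0708) had the smallest p values.

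**Figure D3:**
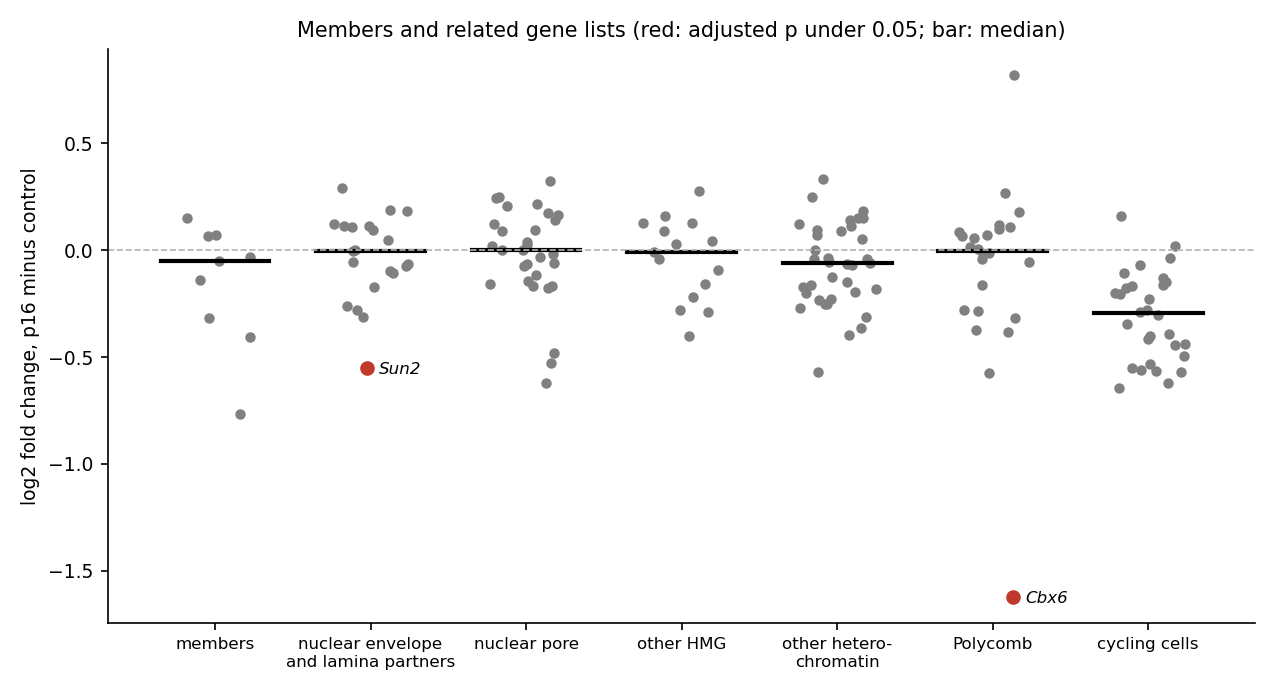
Log2 fold changes (y axis, p16 minus control) of the tested members and of the tested genes of 6 related lists (x axis); each point is a gene, bars are medians and red marks an adjusted p under 0.05 in limma. Sun2 and Cbx6 are the genes in red, where 3.86% of all tested genes were called. The cycling list has the lowest median (-0.29), with 28 of its 30 genes below 0.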

How the data were processed

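mRNA-seq of the 8 samples described above was analysed. The authors prepared 3′-end libraries by an adapted CEL-Seq2 protocol, trimmed reads with Cutadapt and aligned them to GRCm38 with TopHat2. HTSeq and DESeq2 are named in the submitters' processing notes. The labels of replicate 3 in both groups word the library protocol differently. Versions, annotation and the use of molecular identifiers are not given in the sources used here. The deposited signal values are size-factor normalised read counts, rounded by the authors. Whole reads were recovered from 100% of the values (tolerance 0.1 reads). The authors' group means, ratios and p-values were not used.

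Groups were compared with limma 3.58.1 (trend, R 4.3.3) on log2(value + 1) for genes with a mean of at least 1, with Benjamini-Hochberg adjustment over all tested genes, called under 0.05. This was checked on simulated data. Exact permutation tests were two-sided. Alternatives were a pseudocount of 0.1, no filter, a minimum mean of 10, a replicate block, each sample or replicate 3 of both groups left out, total count scaling, edgeR 4.0.16 and DESeq2 1.42.0 on recovered reads, and unadjusted p. Leaving out replicate 4 of both groups was added after the data were seen. The p-values measure the spread between pools. The members and the gene lists were chosen with earlier results of these data known. In each related list, the called genes or else the 2 with the smallest p were named. Gene coordinates are from GENCODE M21 on GRCm38, and promoters from RefSeq GRCm38.p6.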

Additional observations from a re-analysis of the deposited data

Results flagged for a closer look

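Of 60 groups of 4 samples examined, 4 held a value whose gap to the nearest of the others was, as a share of the group's range, above Dixon's 95% critical value, which chance gives in about 1 in 20 groups. Top2a was at 404.9 in control replicate 4, against 304.2 to 315.3 in the other controls. The ratio of Lmnb1 to Lmna was 0.0308 in p16 replicate 2, against 0.02 to 0.02147 in the other p16 samples. Ranbp2 was at 32.9 in p16 replicate 4, against 54.1 to 56.8. The total of p16 replicate 3 was 2884544 reads, against 3150237 to 3202975 in the other p16 samples.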

How the results depend on the processing

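Of 151 log2 fold changes of the 9 tested members under other settings, 142 kept their direction and none had an adjusted p under 0.05. The 142 include the values without a filter, with the higher minimum mean and with the replicate block. Such settings leave a tested member's log2 fold change as in the main fit, so those values could not reverse and say nothing about direction. The 9 that reversed lay near 0. With 1 sample left out, Lbr ranged from -0.0964 to 0.033 (above 0 without control replicate 4, p16 replicate 1 or p16 replicate 4), Cbx3 from -0.0195 to 0.134 (below 0 without control replicate 4) and Cbx5 from -0.169 to 0.0167 (above 0 without control replicate 1 or 4). With total count scaling Lbr was 0.000921. Without replicate 4 of both groups, added after the data were seen, Lbr was 0.0792 and Cbx5 0.0523. Over these settings Hmgb2 ranged from -0.40 to -0.27 (adjusted p 0.119 to 0.290) and Lmnb1 from -0.54 to -0.23 (adjusted p 0.13 to 0.582).

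Over all genes, 159 were called higher and 334 lower. Leaving out 1 sample gave 69 to 196 higher and 177 to 343 lower; the fewest higher were without p16 replicate 1 and the fewest lower without control replicate 1. Leaving out replicate 3 of both groups gave 66 higher and 157 lower, and an unadjusted p gave 897 higher and 1141 lower, with 2 members lower in place of 0. The cause was not tested. The replicate block called 216 genes higher and changed no call of a member, with an unadjusted p of 0.0305 for Lmnb1 and 0.0103 for Hmgb2. The deviations of same-numbered samples had correlations of 0.0044 to 0.083, all positive and under 0.1. Those of differently numbered samples ran from -0.0997 to 0.058, and the highest of all was that of replicate 4 of both groups. The main fit did not take the numbers as pairs, and whether they mark shared experiments cannot be told from these values. Depth limits Hmga2, which edgeR's filter and the minimum mean of 10 removed.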

Other observations

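Sun2 and Cbx6, the called genes of the related lists, lie 81360 bases apart on chromosome 15, which was noticed after their values were seen. The 16 tested genes from Kdelr3 to Syngr1 were taken as a window around these 2, whose calls are therefore part of the choice. No other gene of the window was called, where 3.86% of all tested genes were. Of the 16 log2 fold changes, 12 were below 0, Sun2 and Cbx6 among them, beside 6442 of all 12782 tested genes. At an unadjusted limma p under 0.05, Tomm22, Apobec3, Kdelr3 and Syngr1 were also lower, and Ddx17 and Pdgfb were higher. Of all tested genes, 15.9% passed that limit in either direction. The log2 fold changes were -1.43 for Apobec3, -0.94 for Kdelr3, -0.66 for Syngr1 and 0.23 for Ddx17. Apobec3 and Kdelr3 were at 10.9 or lower in every sample. Tomm22, a mitochondrial import receptor gene on the proximal side of Sun2, was at 181 to 197.9 in controls and 134.3 to 170.2 in p16 samples (log2 fold change -0.36, limma adjusted p = 0.0923). Josd1 and Gtpbp1, between Tomm22 and Sun2, had log2 fold changes of -0.06 and 0.07. Between Sun2 and Cbx6, Dnal4 was at 132 to 163.5 and 154.3 to 171.8 (adjusted p = 0.593). Cbx7, the next Polycomb gene along the chromosome, was at 27 to 41.3 and 14.1 to 36.8 (adjusted p = 0.548), and Pdgfb, a growth factor gene, at 41.1 to 71.8 and 69.1 to 78.9 (log2 fold change 0.38, adjusted p = 0.283).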
